A study of Mus musculus with 16 samples.

Results

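Transcripts of 9 cardiac potassium channel genes were followed in the mouse heart after a sham operation or TAC (transverse aortic constriction, a narrowing of the aorta that puts the left ventricle under pressure load). The genes were Kcnj2, Kcnv2, Kcnd2, Kcnd3, Kcna5, Kcnip2, Kcnj11, Kcnh2 and Kcnq1, matched by symbol, and all 9 were found in each of the 4 deposited tables, out of 22098 genes in any of them. The treatment was vehicle or NR, the usual abbreviation of nicotinamide riboside, a precursor of NAD+. The 16 libraries of total RNA from heart tissue formed 4 groups, with 3 for Vehicle SHAM, 4 for NR SHAM, 4 for Vehicle TAC and 5 for NR TAC. The labels used here name no strain, age, heart chamber, dose or time after surgery. They do not say that each library is a different animal, and the p-values may then reflect technical spread alone. The authors' deposited tables give a mean for each group and the DESeq result of each of 4 pairs. Values of single libraries are therefore not shown, and whether groups overlap cannot be seen.

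Potassium channels end the cardiac action potential: as they open, potassium leaves the myocyte and the membrane returns to rest. In the mouse ventricle, fast repolarization rests on the transient outward current of Kv4 channels (Kcnd2 and Kcnd3 with the subunit Kcnip2) and on delayed rectifiers such as Kv1.5 (Kcna5), whereas the rapid and slow delayed rectifiers (Kcnh2 and Kcnq1) weigh more in larger mammals. Kcnj2 encodes Kir2.1, the main pore of the inward rectifier current that holds the resting potential, and Kcnj11 encodes Kir6.2, the pore of the ATP-sensitive channel. Kcnv2 encodes Kv8.2, a subunit that forms no channel alone and modifies other Kv channels. Loss of repolarizing potassium currents is a known feature of the hypertrophied and failing heart.

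Cell type markers were read from the same tables. The 10 ventricular myocyte markers had summed means between 2276852 and 2618513 normalized counts in the authors' deposited tables. The summed mean of 11 atrial markers was 18370 in Vehicle SHAM, 64307 in Vehicle TAC, 10490 in NR SHAM and 81243 in NR TAC in the authors' deposited tables of the TAC effects. None of the 11 was at 0 in any group. The sum does not stand for each marker: in vehicle hearts 7 were higher and 4 lower after TAC. Their log2 fold changes there ran from −3.95 to 3.40 (median 0.11), whereas all 11 were higher in NR hearts. The summed mean of 8 hepatocyte markers was 37663 in Vehicle TAC against 555 in Vehicle SHAM, 458 in NR SHAM and 648 in NR TAC, in the same authors' deposited tables. Adipocyte markers had summed means of 2247 in Vehicle SHAM, 504 in Vehicle TAC, 410.0 in NR SHAM and 1213 in NR TAC in the authors' deposited tables. Fibroblast markers were higher after TAC for 6 of 8 in vehicle hearts and 8 of 8 in NR hearts (median log2 fold changes 0.36 and 0.44), and macrophage markers for 7 of 8 and 8 of 8 (medians 0.51 and 0.55). The part of these shifts in the values of the channel genes was not tested. In bulk tissue, fewer myocytes and less RNA per myocyte cannot be told apart.

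Levels of the 9 genes can be ranked against each other only after division by exon length. The length used was that of all annotated exons of a gene merged, which can exceed that of the transcripts present in heart. Rankings and ratios per kilobase depend on this choice. Kcnip2, whose calcium-binding protein escorts Kv4 channels to the membrane, stood highest with 2109 normalized counts per kilobase averaged over the 4 groups. It was followed by Kcnj11 with 896.9 and Kcnh2 with 683 normalized counts per kilobase. Kcnj2 (434), Kcnq1 (418), Kcnd2 (387) and Kcna5 (319) lay close together on the same per-kilobase scale. Kcnv2, at 110 normalized counts per kilobase, and Kcnd3, at 81.6, were the lowest. Among 41 potassium channel genes whose mean reached 50, Kcnip2 ranked 2nd per kilobase, behind Kcnk3, which encodes the two-pore leak channel TASK-1 (2755). Within the Kv4 pair, Kcnd2 exceeded Kcnd3 per kilobase in every group, by a ratio of 5.07 in Vehicle SHAM, 5.52 in NR SHAM, 3.88 in Vehicle TAC and 4.26 in NR TAC.

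**Figure D1:**
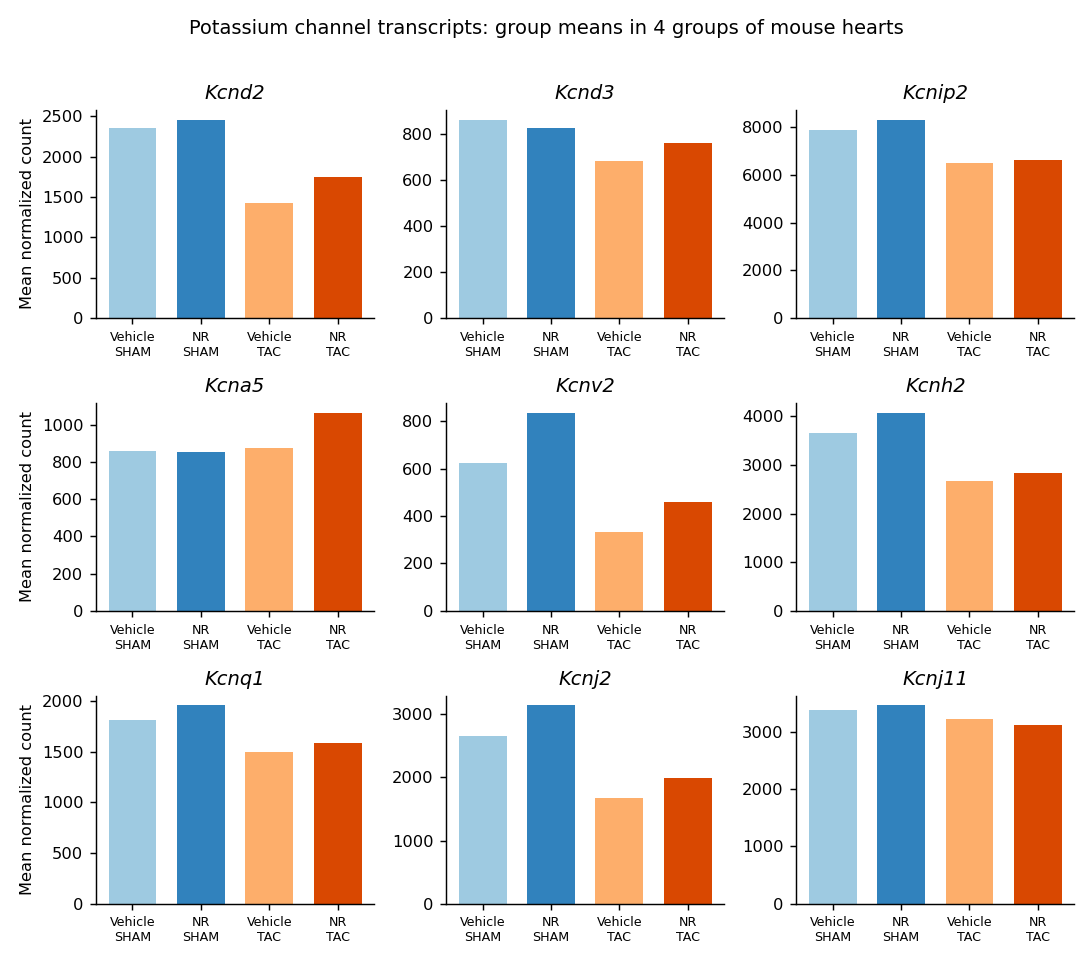
Mean normalized counts of the 9 genes (y axis, starting at 0) in the 4 groups (x axis), on the scale of the table of Vehicle SHAM and Vehicle TAC. Bars are group means without error bars, since values per library are not in the tables. In 8 of the 9 panels both TAC bars are below both SHAM bars, and Kcna5 is the exception. For Kcnj11 the highest and lowest bars differ by a ratio of only 1.11. Fold changes were negative in both TAC comparisons for 30.9 percent of all genes and 42.8 percent of those whose mean reached 500.

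Sequence upstream of the start site is shown for 3 members: Kcnj2 and Kcnd2, whose means were lower after TAC in both tables, and Kcna5, whose fold changes were positive and did not pass. The sequences are RefSeq's, on GRCm38.p6, in which 6 of the 9 genes matched an entry. Each line gives the 250 bases before the RefSeq start, 5′ to 3′ on the gene's strand, and capitals mark matches to a searched motif on either strand. The windows are chr11:111065914-111066163 (plus) for Kcnj2, chr6:21215096-21215345 (plus) for Kcnd2 and chr6:126535556-126535805 (minus) for Kcna5.
Kcnj2: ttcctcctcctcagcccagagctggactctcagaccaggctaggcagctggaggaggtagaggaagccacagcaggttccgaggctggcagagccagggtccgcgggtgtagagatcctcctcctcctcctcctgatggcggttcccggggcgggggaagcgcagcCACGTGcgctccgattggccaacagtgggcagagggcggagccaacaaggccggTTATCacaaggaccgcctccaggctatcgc
Kcnd2: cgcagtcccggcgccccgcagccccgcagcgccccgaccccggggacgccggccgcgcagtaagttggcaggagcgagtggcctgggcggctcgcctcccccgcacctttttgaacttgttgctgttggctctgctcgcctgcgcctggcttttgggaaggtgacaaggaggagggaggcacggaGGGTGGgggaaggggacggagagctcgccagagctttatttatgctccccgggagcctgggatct
Kcna5: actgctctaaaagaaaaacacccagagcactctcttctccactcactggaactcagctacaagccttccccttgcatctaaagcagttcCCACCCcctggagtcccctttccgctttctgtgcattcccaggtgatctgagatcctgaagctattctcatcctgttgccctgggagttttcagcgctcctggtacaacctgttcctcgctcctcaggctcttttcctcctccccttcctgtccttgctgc

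The motifs searched were CACGTG (an E-box, bound by clock and other bHLH factors), GATAA (GATA factors), CCACCC (a KLF-type box), TGANTCA (AP-1), ACANNTGT (Iroquois factors) and GCGNGGGCG (EGR factors). Kcnj2 held CACGTG, found in 6.0 percent of 32851 windows of the same length, with its first base at −84 from the start, and GATAA on the opposite strand at −30, found in 22.6 percent. CCACCC was found in 5 of the 6 member windows (all except Kcnj2), beside 28.1 percent of all windows. TGANTCA, ACANNTGT and GCGNGGGCG were in 0 of the 6, beside 6.7, 6.3 and 4.7 percent. Kcnd2 and Kcna5 each carry 1 CCACCC, and no matches overlap in the 3 printed windows. Whether any of these motifs bears on the fold changes was not tested.

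The inward rectifier gene Kcnj2 lies on the plus strand of chromosome 11 from 111066164 to 111076821 (GRCm38, GENCODE), with 2 exons. After TAC, the mean of Kcnj2 went from 2653 to 1671 normalized counts in vehicle hearts and from 2992 to 1898 in NR hearts, in the authors' deposited tables. These were log2 fold changes of −0.67 (approximate SE 0.2, DESeq adjusted p 0.302) and −0.66 (approximate SE 0.144, DESeq adjusted p 0.00401) in the authors' deposited tables. Kcnj2 thus fell in NR hearts, where it ranked 28th by p among 20946 genes, and did not pass in vehicle hearts, where it ranked 60th among 20540. The difference between the pair of fold changes was 0.01 (approximate 95% interval −0.47 to 0.49); a call in NR hearts and none in vehicle hearts does not show that the effects differ.

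Kcnv2 lies on the plus strand of chromosome 19 from 27322588 to 27337179. In the authors' deposited tables its mean went from 623 to 333 normalized counts with TAC in vehicle hearts and from 796 to 439 in NR hearts. The log2 fold change was −0.90 in vehicle hearts (approximate SE 0.384, DESeq adjusted p 0.888) and −0.86 in NR hearts (approximate SE 0.155, DESeq adjusted p 0.000145) in the authors' deposited tables. It ranked 5th by p among all genes of the NR table. The gene fell in NR hearts and did not pass in vehicle hearts, where the approximate error was larger; the difference of the fold changes was 0.05 (approximate 95% interval −0.77 to 0.86).

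For the transient outward channel, Kcnd2 (Kv4.2; chromosome 6, 21215503 to 21729805, plus strand) had means of 2349 and 1420 normalized counts in Vehicle SHAM and Vehicle TAC in the authors' deposited table. In NR hearts its means were 2340 and 1668 in the authors' deposited table. The log2 fold changes of Kcnd2 were −0.73 (unadjusted p 0.0746) and −0.49 (unadjusted p 0.0042, DESeq adjusted p 0.246) in the authors' deposited tables, and neither passed. Kcnd3 (Kv4.3; chromosome 3, 105452330 to 105674002, plus strand) had smaller fold changes of −0.34 in vehicle hearts and −0.11 in NR hearts in the authors' deposited tables. Kcnip2 (chromosome 19, 45791839 to 45816061, minus strand) had means of 7889 and 6512 in vehicle hearts and 7914 and 6319 in NR hearts in the authors' deposited tables, with fold changes of −0.28 and −0.32 on the log2 scale. Neither Kcnd3 nor Kcnip2 passed. Per kilobase, Kcnip2 was 4.16 times the sum of Kcnd2 and Kcnd3 in Vehicle SHAM, 4.25 times in NR SHAM, 5.40 times in Vehicle TAC and 4.55 times in NR TAC.

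Of the delayed rectifiers, Kcnh2, which encodes the ERG channel (chromosome 5, 24319589 to 24351604, minus strand), had means of 3659 and 2665 normalized counts in vehicle hearts and 3881 and 2715 in NR hearts in the authors' deposited tables. Its log2 fold changes were −0.46 (unadjusted p 0.13) and −0.52 (unadjusted p 0.0264, DESeq adjusted p 0.567) in the authors' deposited tables. Kcnq1, the pore of the slow delayed rectifier (chromosome 7, 143106362 to 143427042, plus strand), had means of 1806 and 1499 in vehicle hearts and 1862 and 1511 in NR hearts in the authors' deposited tables. The log2 fold changes of Kcnq1 were −0.27 and −0.30 in the authors' deposited tables (unadjusted p 0.121 and 0.0453), and it did not pass. Kcna5 (chromosome 6, 126532551 to 126535412, minus strand) was the single member whose mean was not lower after TAC: 859 and 872 in vehicle hearts, 814 and 1017 in NR hearts, in the authors' deposited tables. Its fold changes of 0.02 and 0.32 on the log2 scale did not pass in the authors' deposited tables (unadjusted p 0.941 and 0.4). All 11 atrial markers were higher in NR TAC than in NR SHAM (log2 fold changes from 0.47 to 10.29), and 7 of 11 in Vehicle TAC than in Vehicle SHAM (median 0.11); their part in the values of Kcna5 was not tested.

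The ATP-sensitive channel pore gene Kcnj11 (chromosome 7, 46093953 to 46100764, minus strand) had the narrowest range over the 4 groups, with a ratio of 1.11 between the highest and the lowest level. Its means were 3382 and 3229 normalized counts in vehicle hearts and 3299 and 2980 in NR hearts in the authors' deposited tables. The log2 fold changes of Kcnj11 were −0.07 (approximate 95% interval −0.35 to 0.22) and −0.15 (−0.41 to 0.11) in the authors' deposited tables, and it did not pass.

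Counted together, 8 of 9 genes had a negative fold change after TAC in vehicle hearts (median −0.34, against 0.01 over all 20540 genes). The same number was negative in NR hearts (median −0.32, against 0.02 over 20946). Of all genes, 48.1 percent were negative in vehicle hearts and 46.8 percent in NR hearts. Among genes whose mean reached 50 these shares were 51.8 and 49.2 percent. The members called in NR hearts were 2, both down, beside 0.243 percent of all genes called down there. In vehicle hearts DESeq called 0 members, beside 0.0487 percent of all genes called in either direction. At an unadjusted p below 0.05, 2 members were lower in vehicle hearts (Kcnj2 and Kcnv2) and 5 in NR hearts (with Kcnd2, Kcnh2 and Kcnq1 added), beside 2.12 and 3.45 percent of all genes. The genes were chosen with earlier results of these tables known, so these shares are a description. Beside them, 8 of 10 ventricular myocyte markers were negative in each comparison, with medians of −0.14 and −0.17 and a lowest value of −0.46; their part in the fold changes of the channel genes was not tested.

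**Figure D2:**
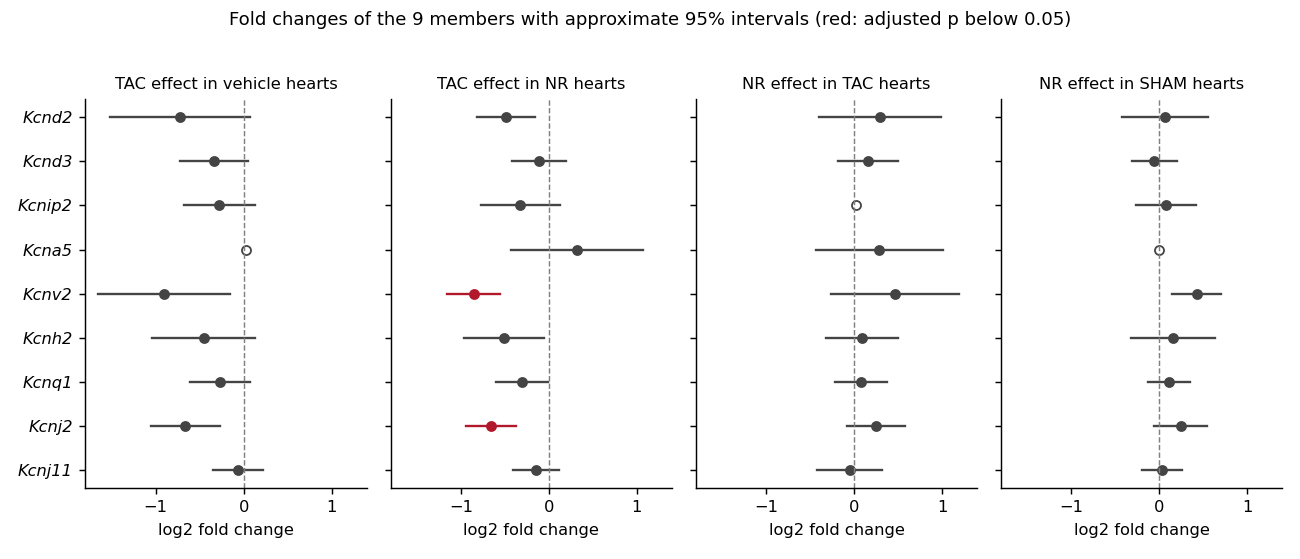
log2 fold changes (x axis) of the 9 genes (rows) in the 4 comparisons (panels), with approximate 95% intervals back-calculated from the deposited p-values. Red marks a DESeq adjusted p below 0.05, which Kcnv2 (−0.86) and Kcnj2 (−0.66) reach in NR hearts; open points have a p above 0.9, for which no interval is drawn.

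The TAC effects with and without NR come from tables that share no library, so the pair of them was combined for each gene over all 19772 genes in both. This combined test was chosen after the data had been seen. The deposited p-values were turned into signed normal quantiles, summed and rescaled to unit variance (Stouffer's method). The log2 value given beside each p is the plain mean of the pair of fold changes. By this test 3 members fell: Kcnj2 by 0.66 on the log2 scale (adjusted p 3.71e-05), Kcnv2 by 0.88 (adjusted p 3.71e-05) and Kcnd2 by 0.61 (adjusted p 0.047). Over all genes 1.09 percent fell and 1.2 percent rose by the same test. Kcnd2 is close to the threshold, and at a threshold of 0.01 it no longer passed. Kcnh2 (−0.49, adjusted p 0.156), Kcnq1 (−0.28, adjusted p 0.194), Kcnip2 (−0.30, adjusted p 0.404) and Kcnd3 (−0.23, adjusted p 0.513) did not pass. Kcnj11 (−0.11, adjusted p 0.785) and Kcna5 (0.17, adjusted p 0.922) did not pass either. The sign was the same in vehicle and NR hearts for 9 of 9 members, beside 66.1 percent of all genes and 73.8 percent of those whose mean reached 500.

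The size of the TAC effect was then compared between NR and vehicle hearts, gene by gene over 18774 genes. This test called 0 members and 0 percent of all genes; at an unadjusted p below 0.05 it found 0 members and 0.842 percent of all genes. The differences of the log2 fold changes lay between −0.08 (Kcnj11) and 0.24 (Kcnd2) for 8 members, and each of their approximate 95% intervals included 0. Kcna5 differed by 0.30, without an interval, because its deposited p in vehicle hearts is above 0.9 and gives no usable error. The intervals were wide: that of Kcnd2 ran from −0.63 to 1.10 and that of Kcnj2, among the narrower ones, from −0.47 to 0.49. A p that misses the threshold here does not show that TAC acted alike with and without NR.

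**Figure D3:**
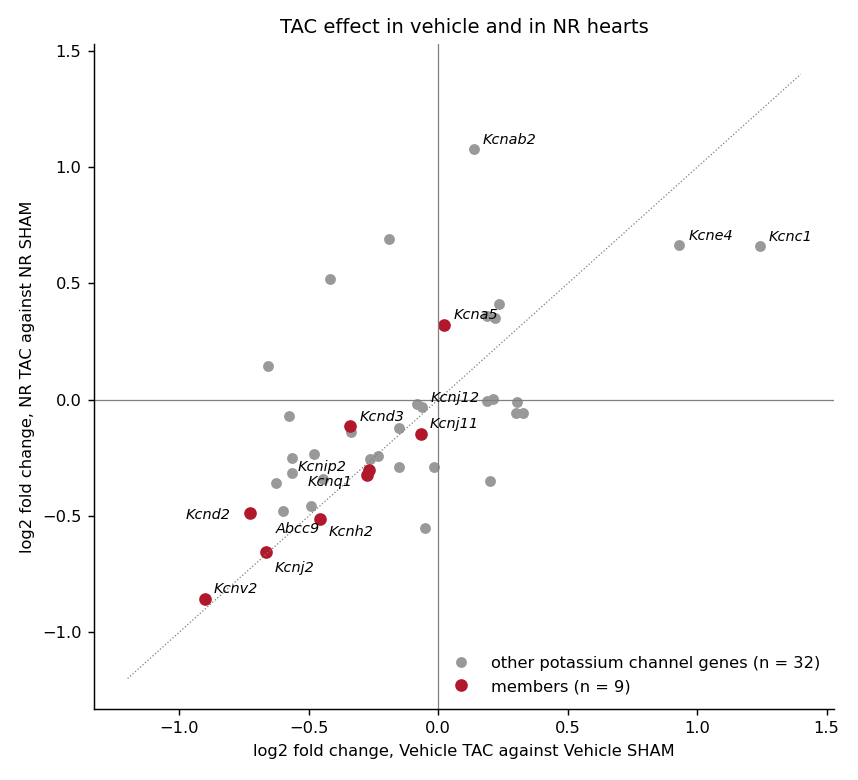
log2 fold change with TAC in vehicle hearts (x axis) and in NR hearts (y axis) for 9 members (red) and 32 other potassium channel genes with a mean of at least 50 (grey). The dotted line marks equal change; 8 members lie in the lower left quadrant, where 17 of the 32 other genes also lie, and Kcna5 lies in the upper right.

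With NR in sham hearts, the means of Kcnv2 were 574 and 769.6 normalized counts in the authors' deposited table, a log2 fold change of 0.42 (approximate SE 0.139). Its unadjusted p of 0.00243 ranked 18th among 19917 genes in the authors' deposited table, and it did not pass (DESeq adjusted p 1). In TAC hearts the means of Kcnv2 were 339 and 467, a log2 fold change of 0.46 (approximate SE 0.371, unadjusted p 0.211) in the authors' deposited table. Kcnj2 had fold changes of 0.24 in sham and 0.25 in TAC hearts on the log2 scale in the authors' deposited tables (unadjusted p 0.116 and 0.141). Neither gene passed in either setting, although both means were higher with NR each time.

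The other members had log2 fold changes with NR between −0.06 (Kcnd3) and 0.16 (Kcnh2) in sham hearts and between −0.05 (Kcnj11) and 0.30 (Kcnd2) in TAC hearts, in the authors' deposited tables. Kcna5 had −0.01 and 0.29 in sham and TAC hearts, where atrial markers had medians of −0.59 and 0.96; their part in these values was not tested. DESeq called 0 members and 0 percent of all genes in each NR comparison. At an unadjusted p below 0.05 there were 0 members in TAC hearts, beside 2.61 percent of all genes, and 1 in sham hearts (Kcnv2), beside 1.88 percent. The member median was 0.16 in TAC and 0.07 in sham hearts, beside 0.00 over all genes in both.

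Since the NR comparisons also share no library with each other, they were combined over 19559 genes in the same way. Kcnv2 (mean log2 fold change 0.44, unadjusted p 0.00246) and Kcnj2 (0.25, unadjusted p 0.0313) had the smallest p-values of the members. Neither passed (adjusted p 1), and 0 percent of all genes passed; 3.38 percent had an unadjusted p below 0.05. The sign was the same in both NR comparisons for 6 of 9 members, beside 56.7 percent of all genes and 61.9 percent of those whose mean reached 500. In these 6 (Kcnj2, Kcnv2, Kcnd2, Kcnip2, Kcnh2 and Kcnq1) both NR fold changes were positive. That held for 28.5 percent of all genes and 35.0 percent of those whose mean reached 500. With the levels of the 4 groups on a common scale, the order NR SHAM, Vehicle SHAM, NR TAC, Vehicle TAC from highest to lowest was the same for those 6 genes. In that order the neighbours NR SHAM and Vehicle SHAM did not pass a test against each other, nor did NR TAC and Vehicle TAC. Vehicle SHAM and NR TAC were tested in none of the 4 tables. The TAC and NR comparisons share groups, so the order adds nothing to the separate tests.

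Partner subunits of the same currents were drawn, after their values had been seen, from lists of the other potassium channel genes. Among Kir2 pores, Kcnj12 (Kir2.2) had log2 fold changes with TAC of −0.06 in vehicle and −0.03 in NR hearts, and Kcnj4 (Kir2.3) 0.33 and −0.06, in the authors' deposited tables. Kcnj14 (Kir2.4) had 0.30 and −0.06 in the authors' deposited tables. In the combined test none of these 3 passed (adjusted p 0.977, 0.945 and 0.869), while Kcnj2 did; whether Kcnj2 differs from them was not tested. Per kilobase, Kcnj14 stood at 656, Kcnj2 at 434, Kcnj12 at 278 and Kcnj4 at 28.2 normalized counts over the 4 groups.

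For the ATP-sensitive channel, the regulatory subunit gene Abcc9 (SUR2) had means of 19301 and 12748 in vehicle hearts and 20119 and 14413 in NR hearts in the authors' deposited tables. Abcc9 fell by 0.54 on the log2 scale in the combined test (adjusted p 0.0222). It passed in neither table singly (DESeq adjusted p 0.888 and 0.296 in the authors' deposited tables). Its partner Kcnj11 had −0.11, the vascular pore gene Kcnj8 (Kir6.1) −0.24 and Abcc8 (SUR1) −0.24 in the combined test, and none of these passed.

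Among voltage-gated channels and their auxiliary subunits, Kcne4, a small membrane protein that dampens several Kv channels, rose by 0.80 in the combined test (adjusted p 0.0344). Its means were 101 and 193 in vehicle hearts and 84.5 and 135 in NR hearts in the authors' deposited tables. Kcng2, another silent subunit, had log2 fold changes of −0.15 and −0.29, Kcna7 −0.56 and −0.32, and Kcnc1 1.24 and 0.66 in the authors' deposited tables; none of them passed. Kcna4 (Kv1.4), of the slow transient outward current, did not pass, at 0.21 and 0.00 in the authors' deposited tables.

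**Figure D4:**
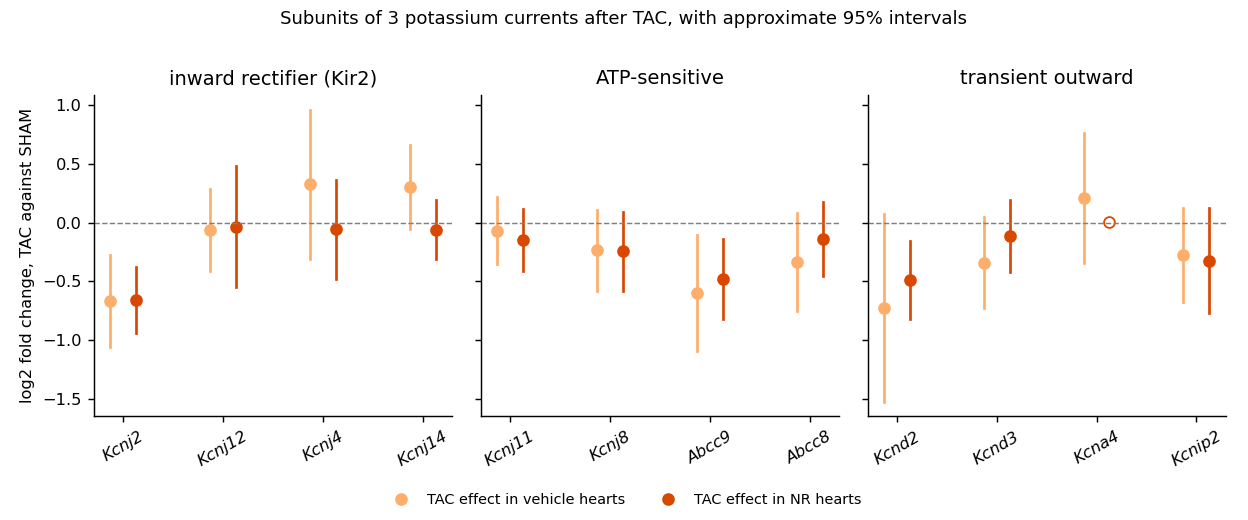
log2 fold changes with TAC (y axis) in vehicle (light) and NR hearts (dark) for subunits of the inward rectifier, ATP-sensitive and transient outward channels, with approximate 95% intervals from the deposited p-values. Kcnj2 lies near −0.66 in both, with Kcnj12 near 0, and Abcc9 lies below Kcnj11; open points have a p above 0.9 and no interval.

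Of 89 other potassium channel genes listed, 70 were in at least 1 table. DESeq called 0 of them in any table. With a mean of at least 50, 20 of 32 were negative after TAC in vehicle hearts (median −0.12) and 22 of 33 in NR hearts (median −0.06). Of all genes with that mean, 51.8 and 49.2 percent were negative. With the low-level genes included, 31 of 67 other channel genes were negative in vehicle hearts and 36 of 68 in NR hearts. The shares over all genes were 48.1 and 46.8 percent. By class, genes with a mean of at least 50 were negative in NR hearts for 7 of 11 voltage-gated pores, 7 of 9 inward rectifier subunits, 2 of 3 two-pore channels, 3 of 5 auxiliary subunits and 3 of 5 calcium- or sodium-activated channels. In vehicle hearts the same classes were negative for 8 of 10, 7 of 9, 2 of 3, 1 of 5 and 2 of 5 genes, so the auxiliary subunits and the calcium- or sodium-activated channels were mostly positive there (median 0.19 in each). The lower genes with the smallest p in the NR table included Abcc9 and Kcng2, and Kcnk6 (0.35) and Kcnab2 (1.08) followed Kcne4 among the higher ones in the authors' deposited table. Kcnn2, a calcium-activated channel gene, did not pass in vehicle hearts, at −0.48 in the authors' deposited table.

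In the NR comparisons of this wider family, the smallest p-values in TAC hearts belonged to Kcnj14 (−0.56, unadjusted p 0.00125), Kcna4 (−0.79, unadjusted p 0.00386) and Kcnk2 (−0.55), and upward to Kcnh7 (0.82), Kcnn2 (0.34) and the atrial-enriched Kcnj3 (0.95), in the authors' deposited table. In sham hearts they belonged to Kcnj14 (−0.19), Kcnj15 (−0.64) and Kcna4 (−0.58), and to Kcnc1 (0.61), Kcne1 (0.35) and Abcc9 (0.13), in the authors' deposited table. None of these passed. In the combined NR test Kcnj14 had −0.38 (unadjusted p 0.000735) and Kcna4 −0.69 (unadjusted p 0.00472), and neither passed (adjusted p 1).

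The genes with the most similar pattern were sought by the Euclidean distance over the 4 log2 fold changes, among 12294 genes whose mean reached 50 in every table. Nearest to Kcnj2 were Whrn (0.0541), Lrp2bp (0.0649) and Prrg1 (0.1). Nearest to Kcnv2 were Pfkfb1 (0.136), Ano10 (0.164) and Abca12 (0.229). The 4 fold changes come from 4 group means each used in 2 tables, so the distance rests on few independent values and is a description.

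A few counts can be shared with neighbouring transcripts. Kcnq1 shares 121 exon bases (2.96 percent of its exons) with the antisense RNA Kcnq1ot1, and Kcnd3 shares 165 bases (1.72 percent) with the antisense gene Kcnd3os. Nothing used here states whether counting used strand, so reads there cannot be assigned. Kcnq1ot1 had means between 120 and 145 normalized counts and Kcnd3os between 7.31 and 18.4 in the authors' deposited tables, well below their partners.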

How the data were processed

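RNA from heart tissue was sequenced on BGISEQ-500 instruments according to the labels' protocols. The submitters' processing notes list TopHat, HTSeq and DESeq as the authors' tools and GRCm38 as the build, without versions. The deposited signal columns hold, per the file headers and values, normalized counts averaged over each group, scaled within the pair of a table. The deposited fold is a ratio of such means after adding 1 to each, and the log2 column deposited beside it is the log of that ratio, which understates changes of low genes. The deposited p-values come from the authors' test of each pair, and the deposited adjusted p matched a Benjamini-Hochberg correction recomputed on every gene in a table.

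No value per library and no library depth is given, so counting intervals are absent. Genes were called at an adjusted p below 0.05. Approximate SEs were each log2 fold change divided by the normal quantile for its p, and were not printed where p exceeded 0.9. From the files, these SEs, the combined z and the difference z were computed in Python 3.11.15 with scipy 1.17.1. Both z tests are approximate. The computations were also run on simulated data, which cannot show how they behave with the deposited p-values. The difference left out 998 genes whose SE could not be formed; 3551 others in it had a p above 0.9 in a table, and without them it was rerun as an alternative chosen after seeing the data. The combined test was chosen after seeing the data. NR groups were placed on the vehicle scale by median ratios of the shared group (0.983 and 1.09) over genes with a mean of at least 50. Exon lengths and positions are from GENCODE for GRCm38, and promoters from RefSeq. Members and lists were chosen with earlier results of these data known. Named genes are the 9 members, other channel genes called in any table or among the 3 of each sign with the smallest p (mean at least 50), and the 3 nearest to Kcnj2 and Kcnv2; other genes given as values, the partner subunits among them, were chosen after their values were seen. A result for 1 of the genes so named is left out of the text.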

Additional observations from a re-analysis of the deposited data

How the results depend on the processing

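No paired analysis was possible because the tables hold group means and the library numbers are unique to each library; for the same reason no library could be left out. Settings that could move a member's value were pseudocounts of 0 and 10, centring on the median gene, other scalings of the levels and the difference taken from the NR tables. The sign changed in 0 of 135 such values. A pseudocount added to both means cannot reverse a sign, so the pseudocount settings are no check of it. The difference taken from the NR tables rests on the same groups of libraries, so it is no independent check either. Centring subtracted only medians between −0.0079 and 0.0039. The count of 0 therefore says little about robustness. Settings that could change a call were thresholds of 0.01 and 0.1, adjustment over genes with a mean of at least 10 or 50, weights by library number, the difference from the NR tables and the difference without genes of p above 0.9. Of 233 such calls 1 changed: Kcnd2 in the combined TAC test (−0.61) lost its call at 0.01. Without genes of p above 0.9, the difference test called 0 of 15223 genes, with 0.992 percent at an unadjusted p below 0.05. Depth per library is unknown, so the smallest detectable change was not set.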

Other observations

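Transcription factors known to act on cardiac potassium channel genes or on the ventricular programme were listed as well. In the combined TAC test, added after the data had been seen, 1 of the 9 passed: Irx4, a ventricular Iroquois factor, fell by 0.53 on the log2 scale (adjusted p 0.0148), beside 1.09 percent of all genes that fell and 1.2 percent that rose by the same test. Its means were 1522 and 1169 normalized counts in vehicle hearts and 1419 and 883 in NR hearts in the authors' deposited tables. Irx3 (−0.33 in the combined test, adjusted p 0.307) did not pass. Klf15, a circadian regulator of Kcnip2 in mouse heart, had means of 1671 and 2511 in Vehicle TAC and NR TAC in the authors' deposited table (log2 fold change 0.59, unadjusted p 0.000985, DESeq adjusted p 1) and did not pass. The means of Kcnip2 in the same groups were 6624 and 6728 in the authors' deposited table. Irx5, described in mouse as a repressor of Kcnd2, had log2 fold changes of 0.13 and −0.61 with TAC in vehicle and NR hearts in the authors' deposited tables, and these were not called. Links between these factors and the channel genes were not tested.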
